A study of Arabidopsis thaliana with 8 samples.

Results

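The 26S proteasome was described at the transcript level in whole Arabidopsis thaliana seedlings, from 43 genes chosen by gene ID because they encode its subunits. Of these, 42 had a row in the table of 27207 genes: 23 genes of the core particle (12 of the alpha ring, 11 of the beta ring) and 19 of the regulatory particle (10 RPT ATPases, 9 RPN subunits). RPN7 (AT4G24820) was not analysed here. The study compared seedlings of an idd4 line, which carries a T-DNA insertion in the reading frame of the zinc finger transcription factor gene IDD4, with WT seedlings, both in the Col-0 background. Seedlings grew for 5 days on 1/2 MS medium, were moved to plates with 100 mM NaCl or without NaCl (mock), and were 14 days old. RNA of each of the 4 groups (idd4 NaCl, WT NaCl, idd4 mock, WT mock) was sequenced in 2 libraries, which the deposited labels and design text call biological replicates. The text of the study names a larger number of replicates for this experiment, and the labels were followed here. Which sequence changes the idd4 line carries beyond the insertion was not analysed here.

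The 26S proteasome degrades proteins that carry ubiquitin chains. Its core particle is a barrel of stacked rings: alpha subunits gate the ends, and inside the beta rings the subunits PBA, PBB and PBE carry the caspase-like, trypsin-like and chymotrypsin-like active sites. The regulatory particle caps the barrel. Its RPT ATPases unfold the substrate, and its RPN subunits bind, deubiquitinate and position it. Every ring position is filled once per ring, so the finished particle needs its subunits in fixed proportions. In Arabidopsis many positions are encoded by a pair of paralogues, and the NAC transcription factors NAC53 and NAC78 raise proteasome gene transcription when proteasome activity is short.

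Values are the deposited fragment counts per gene after scaling each library by 1 factor to a near equal total, here called scaled fragments. The libraries held 5882615 to 13557472 fragments, the fewest in idd4 NaCl replicate 1. Differences are on the log2(value + 1) scale with their standard error, tested with limma over 21820 genes, those averaging 1 or more, and adjusted over all of these by the Benjamini-Hochberg method. A gene is called at an adjusted p under 0.05. IDD4 (AT2G02080) itself had 603 and 528 in idd4 NaCl against 414 and 428 in WT NaCl libraries, and 477 and 436 in idd4 mock against 274 and 360.1 in WT mock libraries, so it was higher in both comparisons in the libraries labelled idd4, without overlap between genotypes (differences 0.42 ± 0.19 and 0.54 ± 0.19, not called). The gene-level value does not show whether an intact transcript was made, and idd4 below means the libraries labelled so. The 6 leaf and 6 root marker genes checked were above 0 in every library.

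The sequence between paralogues sets how well reads tell them apart, and it is shown first for the 2 pairs with the lowest levels, PAB and PAE. The windows are the 100 bases of each pair with the fewest differences, from the coding sequence in RefSeq (assembly TAIR10.1), counted from the A of the start codon, with the bases that differ between both genes in capitals. They are bases 1 to 100 for PAB and 347 to 446 for PAE.
PAB1: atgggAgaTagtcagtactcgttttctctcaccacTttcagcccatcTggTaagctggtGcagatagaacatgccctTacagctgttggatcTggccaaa
PAB2: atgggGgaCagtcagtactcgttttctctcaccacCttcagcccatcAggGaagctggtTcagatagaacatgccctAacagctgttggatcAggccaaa
PAE1: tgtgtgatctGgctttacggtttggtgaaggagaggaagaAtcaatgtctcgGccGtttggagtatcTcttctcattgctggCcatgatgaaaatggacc
PAE2: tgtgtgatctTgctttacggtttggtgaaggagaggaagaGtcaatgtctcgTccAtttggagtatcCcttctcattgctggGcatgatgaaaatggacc
The PAB windows differ at 8 bases and the PAE windows at 6. RPT6A and RPT6B, neighbouring genes on chromosome 5, hold no difference in such a window, bases 694 to 793, so no base is in capitals.
RPT6A and RPT6B: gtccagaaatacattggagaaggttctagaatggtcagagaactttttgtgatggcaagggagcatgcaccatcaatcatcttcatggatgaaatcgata
Over the whole coding sequence, RPT6A and RPT6B were 94.4% identical with a longest shared run of 104 bases. In the other 12 pairs identity was 76.8% to 89.6% and the longest shared run 23 to 53 bases. A read of 100 bases within the coding sequence of these 12 pairs spans a difference. An RPT6A or RPT6B read that lies wholly in a shared run can belong to either gene, unless its mate spans a difference. The study also kept trimmed reads shorter than the longest shared runs of the 12 pairs, so these pairs can hold such reads too.

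The promoters of the members were read for the proteasome-related cis element, the 5 bases TGGGC or, on the other strand, GCCCA, which NAC53 and NAC78 are known to bind. TGGGC is also the start of the site II element of TCP transcription factors, so a match can belong to both motifs. Windows of 300 bases (250 before the annotated transcript start and 50 after it) came from the same assembly. The 250 upstream bases are printed for the gene most clearly higher under NaCl (PAF2), for a catalytic and an ATPase gene with 3 or more matches (PBA1 and RPT2A), and for PBC2, a gene without a match and with one of the genotype differences farthest below 0, each 5′ to 3′ on the strand of its gene with matches in capitals. PAF2 is chr1:17318869-17319118, on the plus strand.
PAF2: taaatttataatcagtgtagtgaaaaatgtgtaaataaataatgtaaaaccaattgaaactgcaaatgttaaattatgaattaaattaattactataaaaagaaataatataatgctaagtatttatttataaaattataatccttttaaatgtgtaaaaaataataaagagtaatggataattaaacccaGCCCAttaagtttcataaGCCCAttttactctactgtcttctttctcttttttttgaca
PBA1 is chr4:15188494-15188743 and RPT2A chr4:14312033-14312282, both on the plus strand.
PBA1: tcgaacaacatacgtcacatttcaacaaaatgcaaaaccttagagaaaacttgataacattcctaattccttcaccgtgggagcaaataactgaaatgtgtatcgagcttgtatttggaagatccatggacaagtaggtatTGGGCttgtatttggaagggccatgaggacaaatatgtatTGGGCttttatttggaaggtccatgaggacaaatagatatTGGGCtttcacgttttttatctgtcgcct
RPT2A: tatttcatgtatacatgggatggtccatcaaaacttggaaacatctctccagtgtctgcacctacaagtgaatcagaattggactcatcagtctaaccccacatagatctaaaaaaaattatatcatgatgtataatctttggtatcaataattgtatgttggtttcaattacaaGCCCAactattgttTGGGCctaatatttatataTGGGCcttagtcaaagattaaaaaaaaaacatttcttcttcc
PBC2 is chr1:29095770-29096019, also on the plus strand.
PBC2: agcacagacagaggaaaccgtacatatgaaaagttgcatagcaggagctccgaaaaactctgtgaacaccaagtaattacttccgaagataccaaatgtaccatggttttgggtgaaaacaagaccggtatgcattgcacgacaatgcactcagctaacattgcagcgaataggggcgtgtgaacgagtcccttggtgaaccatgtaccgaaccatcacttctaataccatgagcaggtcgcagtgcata

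At least 1 match lay in the window of 25 of the 42 members (59.5%), against 28.3% of the 21651 promoters of genes tested and 26.0% of all 27443 promoters of protein-coding genes read. The share was 65.2% for core genes and 52.6% for regulatory particle genes, and highest in the beta ring (9 of 11). Windows with 2 or more matches made up 42.9% of the members and 16.7% of the promoters of genes tested. Upstream of the transcript start, 19 members held 42 matches, 40 of them within 120 bases of the start, with a median distance of 58 bases. Genes with 3 or more upstream matches included RPN1A, PBA1, PBB1, PBB2, PAD1 and RPT2A. Members with 2 or more matches (n = 18) had a median level of 539 scaled fragments per kb of coding sequence, those with 1 match (n = 7) 398 and those without (n = 17) 240. The median NaCl difference ran the other way, at 0.19, 0.20 and 0.25. A match says only that these letters are in the window, and these medians are descriptions without a test.

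Levels were compared between genes per kb of coding sequence, as means over the 8 libraries. They spanned 2100 for PAD1 (AT3G51260), the alpha 4 subunit, to 22.3 for PAB2 (AT1G79210), an alpha 2 subunit. PAD1 had 1552 and 2008 in idd4 NaCl and 1584 and 1847 in WT NaCl libraries, against 1254 and 1529 in idd4 mock and 1320 and 1527 in WT mock libraries, before division by length. PAB2 had 14.3 and 11.6 in idd4 NaCl and 9.01 and 30.4 in WT NaCl libraries, against 8.63 and 8.79 in idd4 mock and 24.6 and 18.9 in WT mock libraries, so no library of PAB2 came near any of PAD1. Medians of the 4 classes were close to each other, at 263 for the alpha ring, 290 for the beta ring, 399 for RPT and 398 for RPN genes. The ranges were not: alpha genes ran between 22.3 and 2100, beta genes between 50.9 and 866, RPT genes between 109 and 1660, and RPN genes between 207 and 1100.

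**Figure D1:**
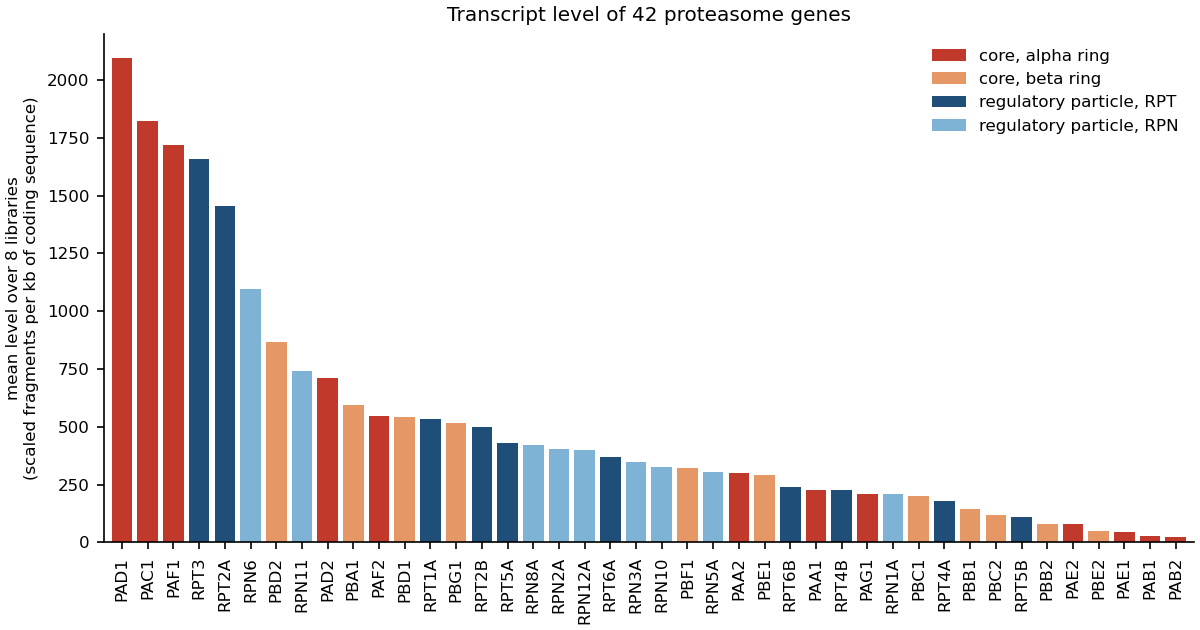
Bars are the mean level of each of 42 proteasome genes over 8 libraries, in scaled fragments per kb of coding sequence (linear axis from 0), ordered by level and coloured by class. PAD1, PAC1 and PAF1 of the alpha ring stand highest, and PAB1 and PAB2 of the same ring lowest.

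Adding the paralogues of each position that are among the 42 members kept the spread. Among the 14 positions of the core particle, the summed level per kb ran between 2810 for PAD and 47.4 for PAB, a ratio of 59.2, although each position holds 1 subunit per ring. The PAE position (alpha 5) was next lowest with 122 and the PAF position (alpha 6) next highest with 2260. Of the 3 catalytic positions, PBA (beta 1) summed to 596, PBE (beta 5) to 340 and PBB (beta 2) to 226. The 15 positions of the regulatory particle that the members cover ran between 207 for RPN1 and 1950 for RPT2, a ratio of 9.44. Second genes outside the 42, such as PAC2, RPT1B (434 per kb) and RPN1B (91.1), are not in these sums. Nor are the positions RPN9 and RPN13, of which RPN13 (33.4) lies below every regulatory particle position summed here. Both ratios therefore hold for the listed genes only.

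The level of a member moved with the length of its exons. PAB1 and PAB2 have 11 and 12 exons of 109 and 89.9 bases on average, while PAC1, PAF1 and PAF2 have 2 exons of 612.5, 622 and 618.5 bases. Across the 42 members the Spearman correlation of level per kb with mean exon length was 0.84 (0.78 over 23 core genes, 0.77 over 19 regulatory particle genes). Over all 21652 genes with an annotated coding model it was 0.08. The members share their libraries, and no p is given. How far counting of short exons takes part in these levels was not tested.

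The question of the NaCl comparison is how the seedlings' transcripts changed after transfer to saline medium. Proteasome transcripts took up more of the library under NaCl: the 42 genes summed to 0.228% and 0.224% of scaled fragments in idd4 NaCl and 0.215% and 0.236% in WT NaCl libraries, against 0.190% and 0.173% in idd4 mock and 0.210% and 0.182% in WT mock libraries. All 4 NaCl libraries lay above all 4 mock libraries, with 0.226% ± 0.0088 under NaCl and 0.189% ± 0.0159 in mock (SD, n = 4 each). Most genes shared this shift. The median difference over all genes tested was 0.25, against 0.22 for the 42 members (0.22 core, 0.21 regulatory particle), and 40 of the 42 were above 0 but only 19 above the median of all genes. Values below are therefore read against 0.25. Under median-of-ratios scaling the medians of core and regulatory particle were -0.02 and -0.03, and under quantile normalization -0.02 and 0.01. Leaving out 1 library moved the core median to between 0.09 (without WT mock replicate 2) and 0.36 (without WT mock replicate 1), with 0.12 without WT NaCl replicate 2 and 0.34 without WT NaCl replicate 1.

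The summed level of leaf markers was lower in every NaCl than in every mock library. The sums of root and dividing-cell markers overlapped between treatments. For NaCl averaged over genotypes, limma called 15.9% of all genes tested, counting both directions (2644 higher and 829 lower of 21820). All 6 leaf markers had differences below 0 and 3 were called (CA1, RCA, PSAD1), with summed levels of 151532 to 312122 in NaCl against 319209 to 472427 in mock libraries. CA1, a carbonic anhydrase, was at -1.47 ± 0.25 and PSAD1, a photosystem I subunit, at -1.05 ± 0.26. RBCS1A, with the highest level of the 6, was at -0.82 ± 0.42 and not called. Both LHCB genes of the list were closer to 0, at -0.11 ± 0.31 and -0.15 ± 0.34. They were below 0 in idd4 (-0.46 ± 0.44 and -0.67 ± 0.48) but above 0 in WT (0.24 ± 0.44 and 0.38 ± 0.48). Root markers summed to 8108 to 17985 under NaCl against 10006 to 14771 in mock. Of the 6, 5 were below 0 and 1 above, and 1 was called, COBL9 (lower, -0.84 ± 0.15). EXPA7 was at -0.54 ± 0.17 and PYK10 at -0.08 ± 0.3. SCR went the other way (0.34 ± 0.12, not called), with every NaCl library above every mock library. The 5 markers of dividing cells summed to 597 to 895 under NaCl against 585 to 838 in mock, with 0 called by limma. Of these, 3 were above 0 and 2 below. The cyclin CYCB1;1 was at 0.46 ± 0.34 and the kinase CDKB2;1 at 0.30 ± 0.26, against -0.08 ± 0.18 for KNOLLE and -0.04 ± 0.37 for AUR1. None of these 17 markers was at 0. Their part in the proteasome values was not tested, and in whole seedlings fewer cells of a type cannot be told apart from less RNA per cell.

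Averaged over genotypes, limma called 2 of the 42 members (4.76%), where it called 15.9% of all genes tested, so the share was below the background. Both encode the alpha 6 subunit. PAF2 (AT1G47250, chr1:17319119-17321202) had 542 and 501 in idd4 NaCl and 589 and 624 in WT NaCl libraries, against 337 and 349 in idd4 mock and 357 and 341 in WT mock libraries. Every NaCl library lay above every mock library, and the difference was 0.70 ± 0.11 (limma, adjusted p = 0.0059). It was called in WT alone as well (0.79 ± 0.16, adjusted p = 0.042) and was 0.60 ± 0.16 in idd4 (adjusted p = 0.082). The WT call was lost when any 1 of 6 libraries, each in turn, was left out. Without WT NaCl replicate 2 and WT mock replicate 1 together, the averaged difference was 0.69 and no longer called (adjusted p = 0.076).

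The span of PAF2 overlaps GAMMA CA2 (AT1G47260), a mitochondrial carbonic anhydrase-like gene on the opposite strand, over 1652 bases. Whether counting used the strand is not given in the sources used here, so fragments of both genes in the overlap cannot be told apart. GAMMA CA2 had 1261 and 1121 in idd4 NaCl and 1357 and 1470 in WT NaCl libraries, against 1098 and 912 in idd4 mock and 1118 and 989 in WT mock libraries, also without overlap between treatments, with a difference of 0.34 ± 0.12 (adjusted p = 0.089). What fragments from the overlap add to the difference of PAF2 was not tested. Other members whose span overlaps a neighbour by over 100 bases are RPT1A (320), RPN5A (288), PBD2 (262), PBF1 (138) and PBB2 (105).

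PAF1 (AT5G42790), the paralogue of PAF2, has no overlapping neighbour. It had 1631 and 1484 in idd4 NaCl and 1691 and 1742 in WT NaCl libraries, against 1287 and 1150 in idd4 mock and 1236 and 1290 in WT mock libraries. The treatments did not overlap, and the difference was 0.40 ± 0.11 (limma, adjusted p = 0.042). The call did not survive leaving out any 1 of 7 libraries, each in turn (adjusted p of 0.080 to 0.150), nor median-of-ratios scaling (0.16, adjusted p = 0.44), quantile normalization (0.28, adjusted p = 0.14) or a fit without the variance trend (0.40, adjusted p = 0.096).

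RPT genes came next. RPT5B (AT1G09100), an ATPase of the base, had 142 and 149.7 in idd4 NaCl and 147 and 216 in WT NaCl libraries, against 97.9 and 103 in idd4 mock and 144 and 104 in WT mock libraries. The highest mock library, WT mock replicate 1, reached above the lowest NaCl library, and the difference of 0.53 ± 0.19 was not called (adjusted p = 0.083). RPT3 (AT5G58290), the most abundant ATPase gene, had 2475 and 2291 in idd4 NaCl and 2166 and 1991 in WT NaCl libraries, against 2025 and 1871 in idd4 mock and 1746 and 1723 in WT mock libraries. The treatments overlapped only between WT NaCl replicate 2 and idd4 mock replicate 1, and the difference was 0.28 ± 0.11 (adjusted p = 0.12). RPT2A (AT4G29040), known from the halted root mutant for its role in the root meristem, had 2233 and 2407 in idd4 NaCl and 1785 and 2113 in WT NaCl libraries, against 1783 and 1675 in idd4 mock and 1699 and 1803 in WT mock libraries. Its difference was 0.29 ± 0.12 (adjusted p = 0.12), with 0.42 ± 0.17 in idd4 and 0.15 ± 0.17 in WT and an interaction of 0.27 ± 0.24 that was not called (adjusted p = 1).

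Among RPN genes, RPN2A (AT2G32730), a large scaffold of the base, had 1301 and 1367 in idd4 NaCl and 1375 and 1225 in WT NaCl libraries, against 1028 and 1084 in idd4 mock and 1212 and 1109 in WT mock libraries. It was 1 of 4 members, with PAF1, PAF2 and PAD1, whose 4 NaCl libraries all lay above the 4 mock libraries (9.52% of members against 21.7% of all genes tested), and its difference was 0.25 ± 0.11 (adjusted p = 0.15). RPN10 (AT4G38630), a ubiquitin receptor whose loss makes Arabidopsis hypersensitive to abscisic acid, had 405 and 456 in idd4 NaCl and 356 and 399.6 in WT NaCl libraries, against 318 and 322 in idd4 mock and 415 and 349 in WT mock libraries. RPN11 (AT5G23540), the deubiquitinating enzyme of the lid, had 651 and 837 in idd4 NaCl and 621 and 771 in WT NaCl libraries, against 607 and 628 in idd4 mock and 802 and 577 in WT mock libraries. Both overlapped between treatments, with differences of 0.21 ± 0.13 and 0.14 ± 0.15.

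The genes with catalytic sites overlapped between treatments as well. PBA1 (AT4G31300), the only gene of the caspase-like site here, had 506 and 381 in idd4 NaCl and 468 and 504 in WT NaCl libraries, against 431 and 337 in idd4 mock and 391.6 and 344 in WT mock libraries, with a difference of 0.30 ± 0.15 (adjusted p = 0.18). PBB1 and PBB2 of the trypsin-like site were 0.17 ± 0.23 and 0.19 ± 0.26. PBE1 and PBE2 of the chymotrypsin-like site were 0.01 ± 0.13 and 0.14 ± 0.25. Like PBB1 and PBB2, both lay below the median of all genes, as did 23 of the 42 members in total.

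**Figure D2:**
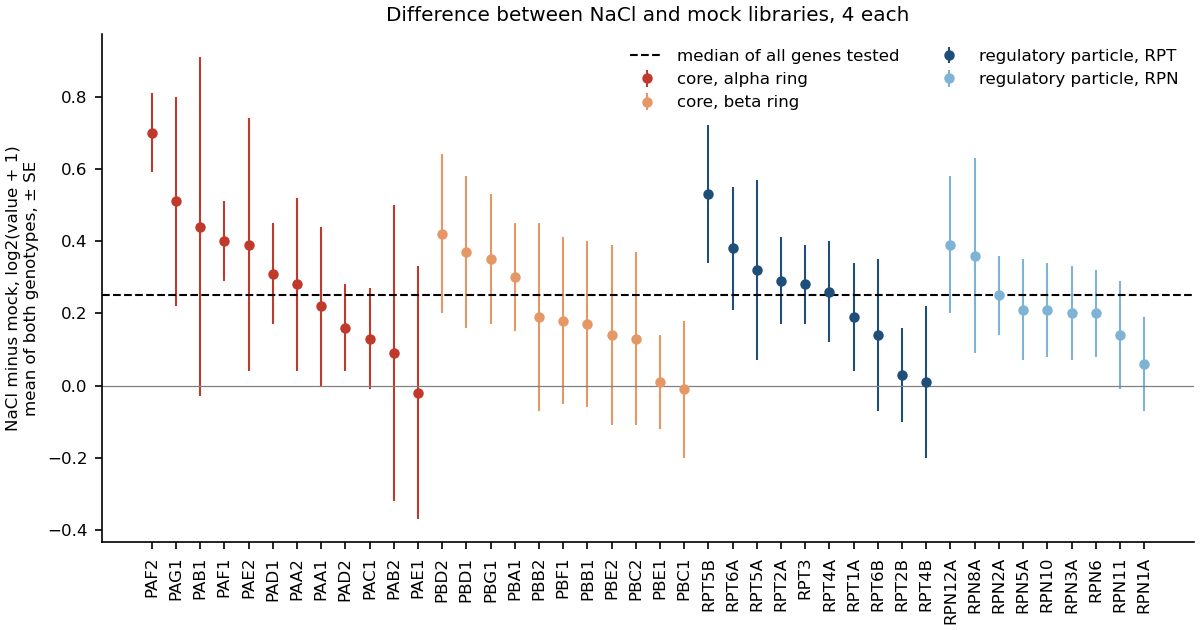
Points are the NaCl minus mock difference of each member on the log2(value + 1) scale, averaged over both genotypes, with the standard error of the limma fit as bars; the dashed line is the median of all genes tested (0.25). Of the 42 members 19 lie above that line, and PAF2 at 0.70 stands farthest above it.

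By class, the NaCl differences had medians of 0.29 for 12 alpha genes (-0.02 to 0.70), 0.18 for 11 beta genes (-0.01 to 0.42), 0.27 for 10 RPT genes (0.01 to 0.53) and 0.21 for 9 RPN genes (0.06 to 0.39). Both negative values were small, at -0.02 ± 0.35 for PAE1 and -0.01 ± 0.19 for PBC1. PAG1, the single alpha 7 gene, was second highest of the alpha ring (0.51 ± 0.29) with treatments that overlapped.

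Within each genotype the calls were few. In idd4, limma called 0 of 42 members and 2.96% of all genes. At an unadjusted p under 0.05 the numbers were 3 members against 21.3% of all genes. In WT it called 1 member (PAF2) and 2.4% of all genes. Medians of core and regulatory particle genes were 0.31 and 0.31 in idd4 and 0.21 and 0.16 in WT. The difference between the NaCl effects of both genotypes was called for 0 of 42 members and 0% of all genes, and for 0 members at an unadjusted p under 0.05 (0.93% of all genes). Its median was 0.03 for core and 0.09 for regulatory particle genes, and its extremes were the low PAB2 (0.87 ± 0.81) and PBC1 (-0.33 ± 0.38).

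The genotype comparison asks how idd4 seedlings differ from WT. The differences of core particle genes lay farther below 0 than those of regulatory particle genes: the median over 23 core genes was -0.34 under NaCl and -0.30 in mock, and over 19 regulatory particle genes -0.06 and -0.14, where the median of all genes was -0.05 and -0.04. Averaged over treatments, core genes were at -0.35 and regulatory particle genes at -0.09. By class these averaged differences had medians of -0.33 for alpha, -0.40 for beta, -0.15 for RPT and -0.05 for RPN genes, with ranges of -0.84 to 0.22, -0.69 to -0.01, -0.29 to 0.18 and -0.27 to 0.03. All 11 beta genes and 9 of 12 alpha genes were below 0, as were 16 of 19 regulatory particle genes. No member passed the test: limma called 0 of 42 members and 0% of all genes under NaCl, in mock and averaged. At an unadjusted p under 0.05, the numbers were 3 members under NaCl (2.44% of all genes), 2 in mock (1.26%) and 3 averaged over treatments (2.93%). Of the 3 under NaCl, PAD2 was higher in idd4 (0.42 ± 0.17), while PBC2 (-0.84 ± 0.33) and PBE1 (-0.46 ± 0.18) were lower.

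By library, the median deviation of the 23 core genes from their means was 0.06 and -0.16 in idd4 NaCl against 0.10 and 0.50 in WT NaCl libraries, and -0.16 and -0.34 in idd4 mock against 0.29 and -0.14 in WT mock libraries. For the 19 regulatory particle genes it was 0.11 and 0.07 in idd4 NaCl against 0.10 and 0.21 in WT NaCl libraries, and -0.12 and -0.22 in idd4 mock against 0.11 and -0.20 in WT mock libraries. WT NaCl replicate 2 and WT mock replicate 1 were high for core genes, at 0.29 and 0.18 above the regulatory particle genes of the same library, while the other WT libraries were at 0 and 0.06. The replicates of 1 genotype and treatment thus differed as much as the genotypes did. Without both libraries the core median was -0.09 and the gap to the regulatory particle -0.10, against -0.35 and -0.27 with all 8. The core median was -0.18 and the gap -0.11 without idd4 NaCl replicate 2 alone, and the gap -0.16 without WT NaCl replicate 2 alone.

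**Figure D3:**
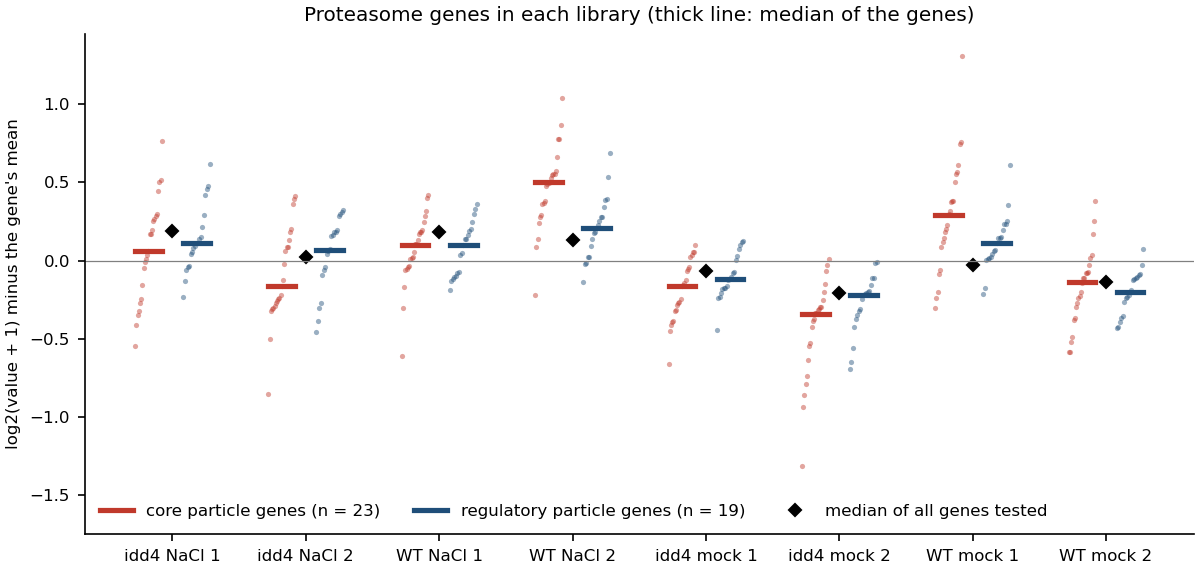
Small points are genes, placed by log2(value + 1) minus the gene's mean over the 8 libraries; thick lines are the medians of 23 core (red, left of each library) and 19 regulatory particle genes (blue, right), and diamonds the median of all genes tested. The core median is highest in WT NaCl replicate 2 (0.50) and WT mock replicate 1 (0.29) and lowest in idd4 mock replicate 2 (-0.34).

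The members PBE1 and PBC2 had all 4 idd4 libraries below all 4 WT libraries (4.76% of members, against 1.24% of all genes tested). PBE1 (AT1G13060, chr1:4452190-4454900), the main gene of the chymotrypsin-like site, had 229.6 and 209 in idd4 NaCl against 275 and 329 in WT NaCl libraries, and 216 and 215 in idd4 mock against 299.6 and 304 in WT mock libraries. The idd4 libraries lay between 209 and 229.6 and the WT libraries between 275 and 329. The difference was -0.47 ± 0.13, the smallest unadjusted p among the members (0.0056), and not called (limma, adjusted p = 1). PBC2 (AT1G77440, chr1:29096020-29098494), a beta 3 subunit, had 46.6 and 61.3 in idd4 NaCl against 74 and 126 in WT NaCl libraries, and 54.7 and 54.4 in idd4 mock against 89.9 and 69.6 in WT mock libraries. Its difference was -0.69 ± 0.24 (unadjusted p = 0.017, adjusted p = 1), with the highest idd4 library at 61.3 and the lowest WT library at 69.6.

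Its paralogue PBC1 (AT1G21720) had 95.1 and 102 in idd4 NaCl against 126 and 176 in WT NaCl libraries, and 117 and 106 in idd4 mock against 158 and 112 in WT mock libraries. The genotypes overlapped between idd4 mock replicate 1 and WT mock replicate 2, and the difference was -0.43 ± 0.19. PBF1 (AT3G60820), the beta 6 subunit, had 233 and 166 in idd4 NaCl against 200.1 and 309 in WT NaCl libraries, and 185 and 119.9 in idd4 mock against 305 and 213 in WT mock libraries. Only the mock libraries were apart, and the difference was -0.55 ± 0.23 (unadjusted p = 0.037, adjusted p = 1).

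Averaged over treatments, the other catalytic genes had differences below 0 with wider scatter, and none was called. PBB1 (AT3G27430) had 120.2 and 97.7 in idd4 NaCl against 112 and 169 in WT NaCl libraries, and 86.3 and 93.5 in idd4 mock against 177 and 98.5 in WT mock libraries. PBB2 (AT5G40580) had 77.1 and 52 in idd4 NaCl against 62 and 91.2 in WT NaCl libraries, and 53.7 and 49.6 in idd4 mock against 92 and 54.7 in WT mock libraries. In both, the mock libraries were apart by genotype and the NaCl libraries overlapped, with differences of -0.45 ± 0.23 and -0.35 ± 0.26. PBE2 (AT3G26340), the minor gene of the chymotrypsin-like site, had 30.5 and 45 in idd4 NaCl against 47 and 53.2 in WT NaCl libraries, and 29.7 and 39.2 in idd4 mock against 51.4 and 38.8 in WT mock libraries, with a difference of -0.40 ± 0.25. PBA1, with the caspase-like site, was at -0.05 ± 0.15, and its libraries overlapped in both treatments.

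Counted within a treatment, both idd4 NaCl libraries lay below both WT NaCl libraries for 10 members, 8 of the core and 2 of the regulatory particle (18.1% of all genes tested), and above them for 5 (9.32% of all genes). In mock, 15 members were lower in both idd4 libraries, 10 of the core and 5 of the regulatory particle (15.9% of all genes tested), and 1, RPT3, was higher (9.05% of all genes). PAA1, PAB1, PAB2, PBB1 and PBF1 are in a gene cluster that the study drew from these same libraries, so their direction is no independent evidence. The 5 above WT under NaCl were RPT3 (0.20 ± 0.16), RPT2A (0.26 ± 0.17), PAD2 (0.42 ± 0.17), RPN6 (0.15 ± 0.17) and RPN10 (0.19 ± 0.18). RPN10 was at -0.25 ± 0.18 in mock, with the libraries apart in both treatments and an interaction of 0.44 ± 0.25 that was not called (adjusted p = 1).

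Exon length moved with the genotype difference too. Across 42 members the Spearman correlation of mean exon length with the difference averaged over treatments was 0.79 (0.73 over core genes, 0.71 over regulatory particle genes, 0.73 over the 35 members with a mean of 100 or more). It was 0.77 under NaCl and 0.70 in mock, and 0.16 with the NaCl difference. Core genes have shorter exons, with a median of 151.7 bases against 198.4 for the regulatory particle. Where exons averaged under 160 bases, the median difference was -0.47 over 15 core and -0.27 over 3 regulatory particle genes. At 160 bases or more it was -0.06 over 8 core and -0.06 over 16 regulatory particle genes.

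All genes showed the same slope in weaker form. Over 21652 genes the correlation was 0.33, and the median difference was -0.18 in the eighth with the shortest exons and 0.05 in the eighth with the longest. The slope differed between libraries. In the shortest and the longest eighth the median deviation of all genes was -0.10 and 0.05 in idd4 NaCl replicate 2 and -0.29 and -0.13 in idd4 mock replicate 2. It was 0.31 and -0.05 in WT NaCl replicate 2 and 0.12 and -0.13 in WT mock replicate 1, the libraries high for core genes, against 0.18 and 0.19 in WT NaCl replicate 1 and -0.20 and -0.05 in WT mock replicate 2. With the trend of all genes on exon length subtracted in each library, the core median was -0.23, the regulatory particle median -0.04 and the gap -0.19. What exon length stands for here was not tested.

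**Figure D4:**
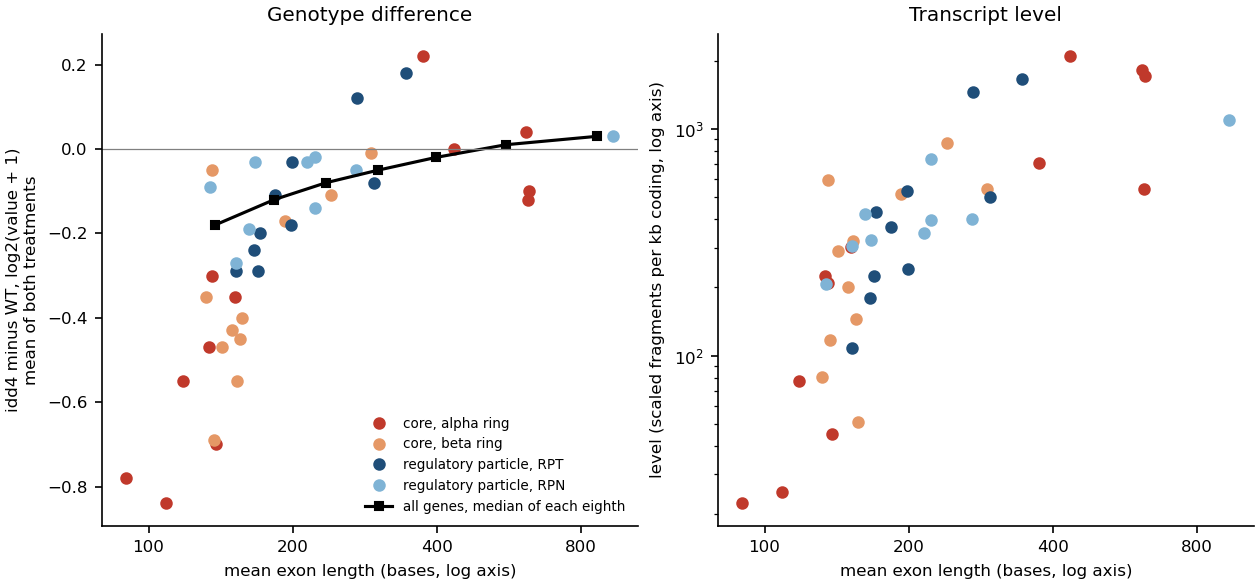
Left, idd4 minus WT difference of each member on the log2(value + 1) scale, averaged over treatments, by mean exon length (log axis), with black squares for the medians of all genes in 7 of 8 bins of exon length. Right, level of the same genes in scaled fragments per kb of coding sequence (log axis). The members lowest in level and farthest below 0 (to -0.84 for PAB1) have exons under 160 bases, while PBA1 and RPN1A with such exons lie at -0.05 and -0.09.

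No change of share between paralogues was called, but the tests could not have called a single pair. In 13 pairs, the share of the first gene in the sum of the pair was compared by treatment and genotype on the log2 ratio of both values + 1, with exact two-sided permutation tests over libraries (4 against 4, 70 arrangements, 26 tests, Benjamini-Hochberg over all). No test was called, and the smallest p such a design allows is 0.029. Over 26 tests, a single pair at that p has an adjusted p of 0.74. The absence of calls therefore does not show that shares stayed the same. Only PAF1 against PAF2 reached it, for NaCl: PAF1 held 75.1% and 74.8% in idd4 NaCl and 74.2% and 73.6% in WT NaCl libraries, against 79.3% and 76.7% in idd4 mock and 77.6% and 79.1% in WT mock libraries. Every NaCl library was below every mock library, by -0.30 on the log2 ratio (exact permutation, p = 0.029, adjusted p = 0.74).

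The largest changes of ratio were in the low pairs, where treatments overlapped. PAE1 held 22.2% and 47.1% of the PAE pair in idd4 NaCl and 26.1% and 42.1% in WT NaCl libraries, against 42.1% and 33.3% in idd4 mock and 44.9% and 41.0% in WT mock libraries (log2 ratio change -0.41, exact permutation p = 0.37, adjusted p = 0.88). PAE1 (AT1G53850) is in the study's list of salt-related genes bound by IDD4, and had 25.1 and 24.8 in idd4 NaCl against 24 and 52.1 in WT NaCl libraries, and 30.7 and 15.2 in idd4 mock against 51.4 and 33.8 in WT mock libraries. PAB1 held 34.5% to 67.9% of its pair (change 0.35, with PAB1 at 12.6 and 17.8 in idd4 NaCl and 19 and 25 in WT NaCl libraries, against 12.5 and 5.6 in idd4 mock and 39.6 and 9.95 in WT mock libraries). PAE2 had 87.9 and 27.9 in idd4 NaCl and 68 and 71.7 in WT NaCl libraries, against 42.2 and 30.4 in idd4 mock and 63.1 and 48.7 in WT mock libraries, so these shares rest on few fragments.

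Shares within a pair were uneven. PBE1 held 82.3% to 88.7% of the chymotrypsin-like pair, RPT5A 73.4% to 85.5%, PAD1 72.2% to 80.2%, RPT2A 70.5% to 78.6% and PBB1 60.9% to 65.7% over the 8 libraries. PBD1 was the minor gene of its pair with 33.6% to 40.8%. RPT6A held 55.9% to 64.8%, with the limit that part of its reads match RPT6B as well.

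**Figure D5:**
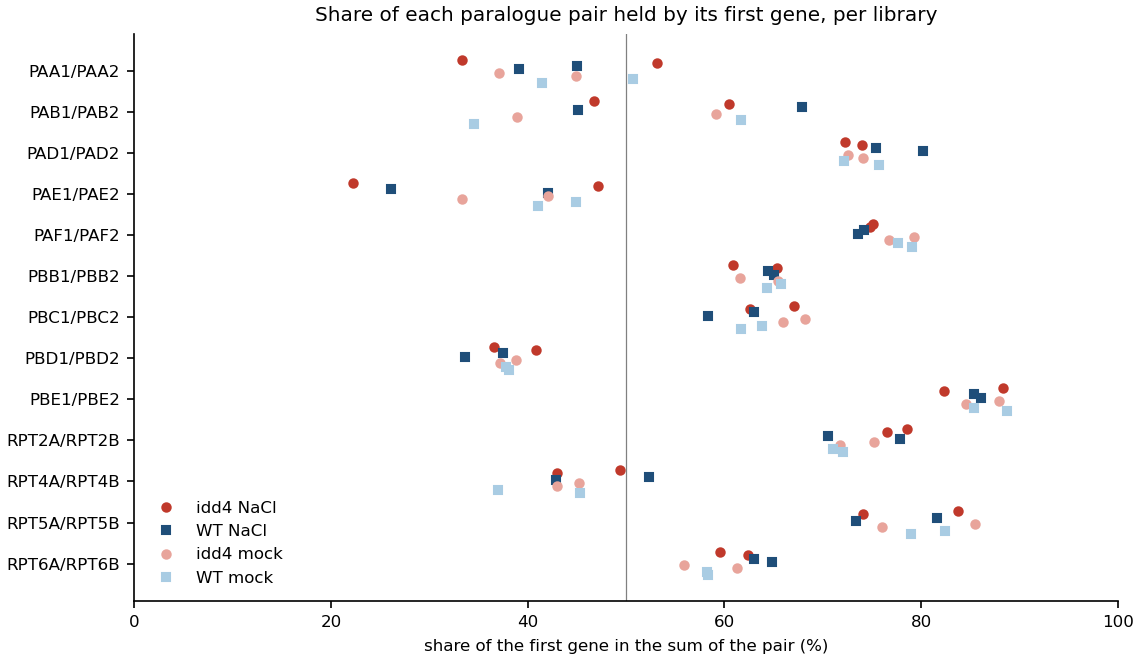
Each row is a paralogue pair and each mark 1 library, placed by the share (%) of the first-named gene in the summed level of the pair (scaled fragments, not divided by length). PAF1/PAF2 is the only pair whose NaCl libraries (73.6% to 75.1%) lie apart from its mock libraries (76.7% to 79.3%) in 1 direction.

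Genes around the proteasome were read from lists of related functions. Of 11 further subunit genes, limma called none for NaCl averaged over genotypes, against 15.9% of all genes tested. The same share stands beside the counts of the lists that follow, which hold few genes each. RPT1B had 1123 and 773 in idd4 NaCl and 976 and 908 in WT NaCl libraries, against 754 and 646 in idd4 mock and 680.5 and 612 in WT mock libraries, a difference of 0.48 ± 0.15 (adjusted p = 0.054), and RPN9A one of 0.31 ± 0.12. Of 15 regulators and partners, 1 was called: PA200 (AT3G13330), an alternative activator that caps the core particle, had 895 and 692 in idd4 NaCl and 636 and 713 in WT NaCl libraries, against 495 and 529 in idd4 mock and 531 and 548 in WT mock libraries (0.47 ± 0.13, adjusted p = 0.038). PTRE1, a proteasome regulator, was at 0.58 ± 0.19 (adjusted p = 0.062).

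NAC53 (AT3G10500) had 734 and 459 in idd4 NaCl and 501 and 424 in WT NaCl libraries, against 651 and 486 in idd4 mock and 537 and 596 in WT mock libraries, overlapping between treatments (-0.12 ± 0.18, adjusted p = 0.64). NAC78 (AT5G04410) had 1030 and 865 in idd4 NaCl and 938 and 859 in WT NaCl libraries, against 774 and 720.4 in idd4 mock and 811 and 706 in WT mock libraries, apart by treatment but not called (0.29 ± 0.12, adjusted p = 0.12). Of 7 ubiquitin and E1 genes, limma called 1 (15.9% of all genes tested). It was the polyubiquitin gene UBQ4 (0.76 ± 0.14, adjusted p = 0.0086), while UBQ14 was at 0.42 ± 0.13. Polyubiquitin genes share near identical repeats, so reads can be split between them.

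A pair of complexes with related architecture or role served for comparison. The COP9 signalosome has subunits that resemble those of the proteasome lid. For NaCl, limma called 3 of its 10 genes, all higher, against 15.9% of all genes tested in either direction (2644 of 21820 genes were called higher). They were CSN1 (0.46 ± 0.12), CSN4 (0.70 ± 0.15) and CSN6B (0.80 ± 0.20), with adjusted p of 0.03, 0.017 and 0.028. The median of the COP9 genes was 0.42. The CCT chaperonin, another ring complex of fixed proportions, had 0 of 9 called by limma and a median of 0.23. CCT7 was at 0.43 ± 0.15 and CCT6B at 0.48 ± 0.26. For the genotype, the COP9 and CCT medians averaged over treatments were -0.12 and -0.19, against -0.35 for proteasome core genes. In either list limma called 0 (0% of all genes tested).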

How the data were processed

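Whole seedlings were sequenced as paired reads, in 2 libraries per group. Per the labels and the study's methods, the authors trimmed reads with Trimmomatic 0.32, mapped them to TAIR10 with TopHat and used Cufflinks. The deposited table holds a signal: fragment counts per gene scaled by the authors with 1 factor per library (at least 99.96% of values lie within 0.05 of whole steps), not divided by length. Of 27207 IDs, 26558 matched RefSeq TAIR10.1, whose nuclear coordinates equal TAIR10. The 5387 genes averaging under 1 were not tested. limma 3.58.1 in R 4.3.3, tested on simulated data, was fitted to log2(value + 1) of all 8 libraries with 1 mean per group and a variance trend. Groups came from the labels. The promoter of 1 member is not reported here. The members and lists were chosen with earlier results of these data known. Values in every library are given for the 6 members with the smallest p for NaCl and the 4 for genotype, the catalytic genes, RPN10, RPN11, RPT2A, both ends of the level order and the 3 pairs with the largest share change. Of each further list the 2 genes with the smallest p for NaCl are named, with NAC53, NAC78 and IDD4. GAMMA CA2, CSN1, RCA, RBCS1A, both LHCB genes, PAD2, RPN6, SCR, PYK10, KNOLLE and AUR1 were named after their values were seen. Alternatives were pseudocount, filter, scaling, variance trend, libraries fitted, a replicate block and leaving out libraries.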

Additional observations from a re-analysis of the deposited data

How the results depend on the processing

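The count of members called for NaCl averaged over genotypes was 2, and 1 under median-of-ratios scaling, quantile normalization or no variance trend, 1 to 3 when 1 library was left out (3 without idd4 NaCl replicate 2, 1 in each other case), and 0 without WT NaCl replicate 2 and WT mock replicate 1 together. In WT the count was 1, and 0 under those same scalings, without the variance trend, with only the libraries compared in the fit and without that pair of libraries, and 0 to 1 when 1 library was left out. The NaCl medians of core and regulatory particle genes averaged over genotypes were 0.22 and 0.21, against -0.02 and -0.03 under median-of-ratios scaling and -0.02 and 0.01 under quantile normalization, where the median of all genes was near 0 as well. For idd4 minus WT averaged over treatments, the core median was -0.35, and -0.09 without WT NaCl replicate 2 and WT mock replicate 1; its gap to the regulatory particle was -0.27, and -0.10 without that pair, and ran between -0.38 and -0.11 when 1 library was left out. A pseudocount of 10, no filter and a minimum mean of 10 changed no count of members called. Leaving out that pair of libraries and subtracting the exon length trend were chosen after seeing the data.

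The labels give both libraries of each group a number but no shared source. The deviations of same-numbered libraries correlated between 0.041 and 0.397 over the 6 pairs of groups, below 0.1 in 3 of them, so the numbers were not taken as pairs. With a replicate block, 1 member was called for NaCl in idd4, against 0 without it, and no other count of members changed. Over all genes tested, the calls for NaCl in idd4 rose from 646 without the block to 1728 with it. Planned count models on recovered fragments were not run, because a check of units did not accept 2 of the 8 libraries. These were WT NaCl replicate 1 and WT mock replicate 2, whose steps of 1.0006 and 0.99466 lay too near 1 for that check. In both, 100% of values lay on whole steps, so the limit was in the check and not in these values. The causes of the changes with the replicate block were not tested. Depth limits the PAB and PAE genes most, at 5.60 to 87.9 scaled fragments per library.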
